A study of Mus musculus with 6 samples.

Results

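The genes described here are 35 type I interferon-stimulated genes, a list of genes that interferon alpha and beta are known to induce. A member was measured where the RefSeq accession of an array probe mapped to its symbol. This gave 42 probes for 33 of the 35 genes, and all 33 passed the filter on dim probes, among 18405 genes and transcripts tested. No probe mapped to Mx1 or Mx2 through the table used, which lists both as transcribed pseudogenes, so no value is given for them. The samples were red pulp macrophages, the splenic cells that clear aged red blood cells, taken from the spleen with a flow cytometer. The mice were C57BL/6, aged 8 to 9 weeks, with 3 wild-type animals (replicate 3 female, the others male) and 3 male animals with a knockout of Bach2, a transcriptional repressor of the BACH family. Sex was thus not balanced between the genotypes, and it was not accounted for in the comparison. The labels name no treatment, and they state neither the form of the Bach2 deletion nor the markers used for sorting. Each mouse gave 1 single-colour Agilent array on a shared slide. All wild-type arrays were in row 1 and all knockout arrays in row 2, which means that a row effect cannot be told apart from genotype. Every array column carried a wild-type and a knockout mouse. The title of the study concerns Bach2 in the handling of heme and iron by these macrophages, and the comparison here is of the interferon-stimulated genes between the genotypes.

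Type I interferons are secreted by cells that sense viral or displaced nucleic acid. They bind the receptor pair IFNAR1 and IFNAR2, and the kinases JAK1 and TYK2 then activate STAT proteins, STAT2 among them. With IRF9 these form the complex ISGF3, which binds interferon-stimulated response elements in promoters and induces antiviral genes. Macrophages hold many of these genes at a basal level and raise them quickly when interferon is present.

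The element that ISGF3 reads has a core of 2 copies of GAAA separated by any 2 bases, and this word was searched on both strands of RefSeq promoters (GRCm38.p6, 250 bases before to 50 after each gene start). Promoters were given for 27 of the 35 members, and 11 of these 27 genes (40.7%) held the word, against 3.99% of all 27025 genes with a promoter and 3.92% of the 9460 such genes that were tested on the arrays. The members with it were Bst2, Ddx58, Eif2ak2, Ifih1, Ifit1, Ifit3, Isg15, Oas1a, Oas3, Rsad2 and Stat2. The word TGANTCA, the core shared by AP-1 and by the Maf recognition elements that BACH factors bind, reads the same on either strand. By its letters it cannot share a base with a match to the first word. It was in the promoters of 5 of the 27 members (18.5%, namely Ifi35, Ifit3, Oas3, Rsad2 and Xaf1), against 8.97% of all genes and 6.43% of tested genes. A match describes the letters only. The 250 bases before the start are shown for 4 members whose levels took contrasting courses over the 6 mice, with every match to the GAAA pair, or to its reverse complement with TTTC, in capitals.
Isg15 promoter: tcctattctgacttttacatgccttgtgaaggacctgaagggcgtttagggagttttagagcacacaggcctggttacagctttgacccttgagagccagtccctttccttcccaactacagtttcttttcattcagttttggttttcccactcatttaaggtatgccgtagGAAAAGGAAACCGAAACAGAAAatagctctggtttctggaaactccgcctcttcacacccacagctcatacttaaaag
Rsad2 promoter: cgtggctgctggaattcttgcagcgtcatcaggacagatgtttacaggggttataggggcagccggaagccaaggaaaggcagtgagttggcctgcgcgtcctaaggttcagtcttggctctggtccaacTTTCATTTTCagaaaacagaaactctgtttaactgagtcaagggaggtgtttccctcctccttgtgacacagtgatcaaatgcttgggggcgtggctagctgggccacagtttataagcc
Ifit3 promoter: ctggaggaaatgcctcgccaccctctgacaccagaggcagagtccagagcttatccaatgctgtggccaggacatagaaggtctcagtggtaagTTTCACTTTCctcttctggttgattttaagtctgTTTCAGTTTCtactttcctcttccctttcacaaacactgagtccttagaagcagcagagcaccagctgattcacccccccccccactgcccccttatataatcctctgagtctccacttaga
Oas1a promoter: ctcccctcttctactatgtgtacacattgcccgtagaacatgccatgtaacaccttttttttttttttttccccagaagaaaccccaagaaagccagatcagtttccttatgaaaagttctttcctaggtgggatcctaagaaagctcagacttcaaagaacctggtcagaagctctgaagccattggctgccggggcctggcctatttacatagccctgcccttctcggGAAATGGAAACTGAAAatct
These stretches lie at chr4:156200819-156201068 on the minus strand, chr12:26456453-26456702 on the minus strand, chr19:34583279-34583528 on the plus strand and chr5:120907526-120907775 on the minus strand, and each ends at the base before the annotated start. Isg15 held 3 overlapping matches that begin 78, 72 and 66 bases before the start, Ifit3 held 2 at 156 and 122 bases, Oas1a held 2 at 20 and 14 bases, and Rsad2 held 1 at 120 bases.

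No interferon-stimulated gene of the list passed the test between Bach2 knockout and wild type. Levels below are log2 signal minus the 75th percentile of the array, and differences are knockout minus wild type ± SE from a limma fit over all 18405 entries, with 3 mice a genotype. Of the 33 members, 0 had a limma adjusted p under 0.05 and 0 had an unadjusted p under 0.05, and over all entries these shares were 0% and 1.24% (0.69% higher and 0.554% lower in knockout). Unadjusted p values of the members ran from 0.267 to 0.966. In 0 of 33 members were the genotypes free of overlap, against 2.89% of all entries (1.14% higher and 1.74% lower in knockout), a share so low that the count says little about the members. Members lay on both sides of 0, with 15 above (45.5%, against 39.3% of all entries) and 18 below. Only Ifit2 differed by 1 or more on the log2 scale in either direction (3.03%, against 7.41% of all entries). The median difference was -0.04 for the members and -0.11 for all entries, and 19 of 33 members (57.6%) lay above the median of all entries.

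The precision of the comparison was limited. The SE of a member ran from 0.42 to 1.02, and for 0 of 33 members did the 95% interval exclude a 2-fold difference both up and down, against 0.494% of all entries. A moderate change of any one member was therefore not detectable with these arrays, and the lack of a call does not show that levels were equal. The absolute difference exceeded the pooled SD within genotypes for 2 members, Usp18 and Xaf1 (6.06%, against 13.8% of all entries). Within the array columns the median member differed by -0.09, -0.22 and 0.01, with 16, 12 and 18 of 33 members above 0 in columns 1, 2 and 3. Over all entries the medians were -0.13, -0.15 and 0.04, with 38.3%, 42.3% and 51.8% above 0. The plot of differences shows each member with its interval.

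**Figure D1:**
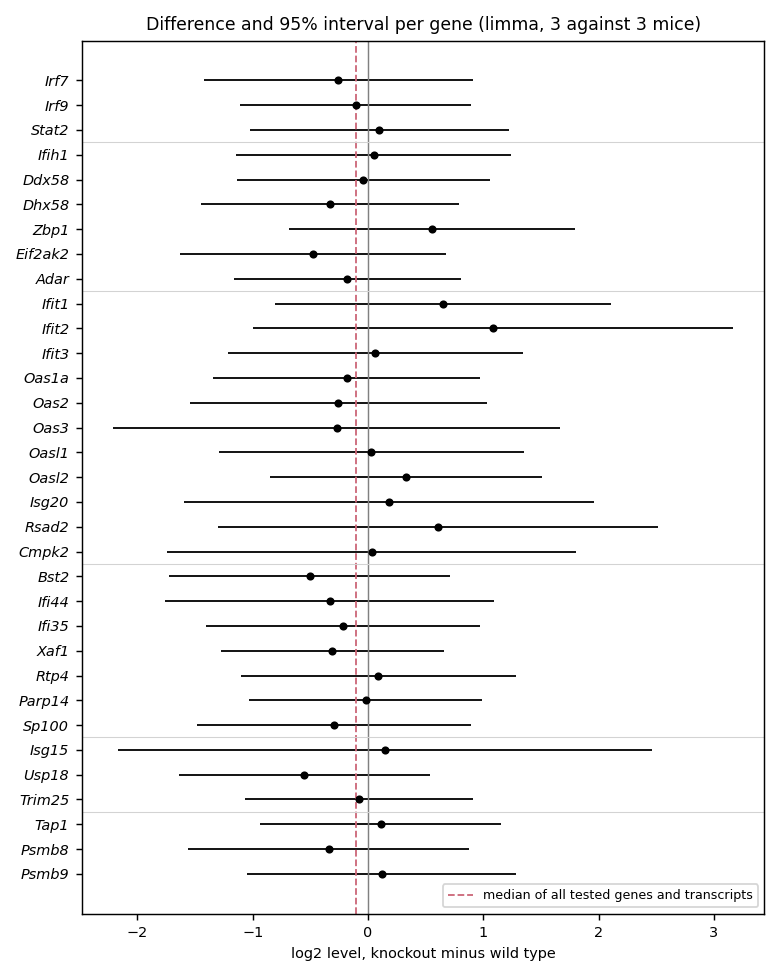
Difference in log2 level between Bach2 knockout and wild type for each of the 33 measured interferon-stimulated genes (points, in role groups separated by grey lines), with 95% intervals from limma over 3 against 3 mice. Every interval spans 0, the points run from -0.55 for Usp18 to 1.09 for Ifit2, and the dashed line marks the median of all tested entries at -0.11.

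Bach2 itself read -0.90, 0.02 and -1.35 in wild type and -2.24, -3.72 and -1.15 in knockout on its brighter probe, a difference of -1.62 ± 0.71 (limma adjusted p = 0.99997), with knockout replicate 3 inside the wild-type range. Whether the probe lies in the deleted part is not given in the sources used here, so it does not check the labels. Of 18 red pulp macrophage markers 17 were tested, and 16 were well above background on all 6 arrays. Between the genotypes 0 of 17 lay above 0, against 39.3% of all entries, with a median difference of -0.47. No overlap on the lower side was found for 2 of the 17, against 1.74% of all entries. The summed level of these markers was 2000 to 3950 in wild type and 1652 to 2358 in knockout. The signal at an array's 75th percentile ranged from 764 to 2664 over the 6 arrays, and no spot was saturated. The median of the erythroid markers differed among mice of the same genotype, and for 0 of 9 were the genotypes free of overlap. The median differences of NK, T cell and neutrophil markers were above 0. Of 8 tested neutrophil markers 7 lay above 0, against 39.3% of all entries, with a median difference of 1.01. The summed level of the neutrophil markers was 59.8 to 290 in wild type and 106 to 440 in knockout. Ltf and Ngp had an unadjusted p under 0.05 by limma, higher in knockout (against 0.69% of all entries), and no overlap (against 1.14%). The part of any of these cells in the members' readings was not tested. In bulk RNA of sorted cells, fewer cells of a type and less RNA per cell cannot be told apart.

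Among the factors that carry the interferon signal to promoters, no difference exceeded the spread between mice. Irf9, the DNA-binding subunit of ISGF3, read 5.10, 5.63 and 4.84 in wild type and 4.99, 5.24 and 5.01 in knockout. Irf7, the factor that amplifies interferon alpha production and is itself strongly induced, read 2.31, 1.34 and 2.46 in wild type and 2.21, 1.90 and 1.22 in knockout. Both genotypes overlapped for each gene, and the highest and lowest Irf7 values differed 2.35-fold. The differences were -0.11 ± 0.44 for Irf9, -0.26 ± 0.51 for Irf7 and 0.10 ± 0.49 for Stat2, a subunit of ISGF3 (limma adjusted p = 0.99997 each).

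Of the 6 sensors of foreign nucleic acid, 2 lay above 0 and 4 below, and none had an unadjusted p under 0.05 by limma. Ifih1, which encodes the RNA helicase MDA5, read 3.18, 4.23 and 4.03 in wild type and 3.91, 3.22 and 4.47 in knockout, a difference of 0.05 ± 0.52. Zbp1, a sensor of Z-form nucleic acid that can start necroptosis, had the smallest p of the sensors and read 0.95, 1.79 and 1.16 in wild type and 1.57, 2.76 and 1.24 in knockout. Knockout replicate 2 stood above the other 5 mice, and the difference of 0.55 ± 0.54 did not pass (limma adjusted p = 0.99997). Eif2ak2, the kinase PKR that halts translation on double-stranded RNA, differed by -0.48 ± 0.50. Its knockout mice lay within 0.16 of each other and its wild-type mice spread over 1.50. Ddx58 (RIG-I), Dhx58 (LGP2) and Adar, the editor that marks self RNA, differed by -0.04 ± 0.48, -0.33 ± 0.49 and -0.18 ± 0.43. The second probes of Ddx58 and Adar had the opposite sign, at 0.51 and 0.03, and those of Ifih1 and Zbp1 had the same sign as the first.

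Among the effectors that act on RNA and nucleotides, several genes differed more between mice of 1 genotype than between the genotypes. Isg20, a 3′ exonuclease for single-stranded RNA, read 7.69, 5.84 and 6.01 in wild type and 7.58, 7.33 and 5.16 in knockout. Rsad2, viperin, which makes a chain-terminating nucleotide, read 6.85, 3.77 and 4.44 in wild type and 6.44, 5.77 and 4.68 in knockout. Cmpk2, a mitochondrial nucleotide kinase whose gene is the coding neighbour of Rsad2 on chromosome 12, read 4.29, 1.59 and 2.39 in wild type and 3.87, 2.16 and 2.34 in knockout. For all 3 genes replicate 1 of each genotype was the highest of its group. The highest and lowest mice differed 5.75-fold for Isg20, 8.47-fold for Rsad2 and 6.51-fold for Cmpk2, whereas the differences between genotypes were 0.18 ± 0.78, 0.61 ± 0.84 and 0.03 ± 0.78 (limma adjusted p = 0.99997 each). The second probe of Cmpk2, well above background on 3 of 6 arrays, had the opposite sign at -1.07, and the mean of its probes gave -0.52. The Rsad2 difference was 1.53 without wild-type replicate 1 and -0.02 without wild-type replicate 2. Isg20 and Cmpk2 likewise changed sign without wild-type replicate 2, at -0.16 and -0.55.

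Ifit2, which binds viral RNA, had the smallest p of all members. It read -2.29, -1.77 and -1.07 in wild type and 1.50, -2.40 and -0.98 in knockout, so that 1 mouse, knockout replicate 1, set the difference of 1.09 ± 0.91 (limma adjusted p = 0.99997). Only 2 of 3 knockout arrays were well above background. Without knockout replicate 1 the difference was 0.02, and without both mice of array column 1 it was -0.27. Its neighbour on chromosome 19, Ifit3, did not share this reading, at 3.96, 5.76 and 5.18 in wild type and 4.70, 5.40 and 4.99 in knockout, and Ifit1 read 0.09, -1.67 and -1.21 in wild type and 0.20, -1.26 and 0.22 in knockout. Ifit1 and Ifit3 differed by 0.65 ± 0.64 and 0.06 ± 0.56.

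The 2′-5′ oligoadenylate synthetases make the activator of RNase L, and Oasl1 is a relative that lacks this activity. Oas1a read 3.76, 5.21 and 4.34 in wild type and 3.97, 4.43 and 4.35 in knockout, with both genotypes overlapping. The 5 genes of the family differed by -0.18 ± 0.51 (Oas1a), -0.26 ± 0.56 (Oas2), -0.27 ± 0.85 (Oas3), 0.03 ± 0.58 (Oasl1) and 0.33 ± 0.52 (Oasl2), of which none had an unadjusted p under 0.05 by limma. Oas3 was well above background on 2 of 3 arrays in each genotype.

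Of the 7 measured effectors at membranes, in the nucleus or elsewhere, 6 lay below 0 and 1 above. Bst2, tetherin, which holds budding virions at the cell surface, read 5.48, 6.59 and 6.14 in wild type and 5.24, 6.34 and 5.11 in knockout, a difference of -0.51 ± 0.53. Knockout replicate 2 reached the wild-type range and the other 2 knockout mice lay below it. Xaf1, a proapoptotic factor, differed by -0.31 ± 0.42, and Parp14, an ADP-ribosyltransferase, by -0.02 ± 0.44, with the highest and lowest mice 1.60-fold and 1.68-fold apart. The second probe of Xaf1, well above background on 3 of 6 arrays, spread more widely, from -4.44 to -0.92. It differed by -0.87, and the mean of the Xaf1 probes gave -0.59. Ifi35, Rtp4, Ifi44 and Sp100 differed by -0.22 ± 0.52, 0.09 ± 0.52, -0.33 ± 0.63 and -0.29 ± 0.52. Ifi44 was well above background on 2 wild-type arrays and 1 knockout array, and Sp100, a nuclear body protein, on 3 and 1. None of the 7 had an unadjusted p under 0.05 by limma.

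ISG15 is a ubiquitin-like protein that is conjugated to other proteins, and USP18 both removes it and blocks the receptor subunit IFNAR2. Isg15 read 7.59, 5.43 and 4.71 in wild type and 7.11, 7.09 and 3.97 in knockout, a range of 12.3-fold across mice with a difference of 0.15 ± 1.02 between genotypes. Its second probe gave 0.12, with the same 3 mice on top. Usp18 read 1.79, 1.89 and 1.57 in wild type and 1.90, 0.91 and 0.79 in knockout, a difference of -0.55 ± 0.48 (limma adjusted p = 0.99997). The wild-type mice lay close together, 2 knockout mice lay below all of them, and knockout replicate 1 lay above. Trim25, a ubiquitin ligase that activates RIG-I, varied 1.47-fold over the 6 mice, the narrowest range of the 33 members, and differed by -0.08 ± 0.43.

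Tap1, the peptide transporter, and Psmb8 and Psmb9, 2 catalytic subunits of the immunoproteasome, feed antigen presentation on MHC class I and are neighbours on chromosome 17. Psmb8 read 6.75, 7.73 and 6.81 in wild type and 6.66, 7.49 and 6.13 in knockout, and Psmb9 read 6.69, 7.40 and 6.33 in wild type and 6.95, 7.49 and 6.34 in knockout. In both genes replicate 2 was the highest mouse of each genotype. The differences were -0.34 ± 0.53 for Psmb8, 0.12 ± 0.51 for Psmb9 and 0.11 ± 0.46 for Tap1 (limma adjusted p = 0.99997 each).

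The spread between mice was uneven among the members, as the heat map by array shows. The highest and lowest mice differed by 4-fold or more for 6 of 33 members (18.2%, against 35.7% of all entries), namely Ifit2, Oas3, Isg20, Rsad2, Cmpk2 and Isg15. The median range over the 6 arrays was 1.50 on the log2 scale for the members and 1.64 for all entries. In 6 members both mice of array column 1, wild-type replicate 1 and knockout replicate 1, were the 2 highest (18.2%, against 15.1% of all entries), and in 8 others both were the 2 lowest (24.2%, against 17.5%). The first set was Oas3, Oasl1, Isg20, Rsad2, Cmpk2 and Isg15 and the second Stat2, Ddx58, Dhx58, Ifit3, Oas1a, Ifi44, Rtp4 and Parp14. Both shares were near those of all entries. No mouse was the highest in all members. Wild-type replicate 2 was the highest in 13 of 33 (39.4%, against 29.5% of all entries), and wild-type replicate 1 and knockout replicate 3 were each the lowest in 9 (27.3%, against 13.9% and 23.5%). The median member, centred over the 6 arrays, read -0.18, 0.32 and 0.00 in wild type and -0.03, 0.08 and -0.12 in knockout.

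**Figure D2:**
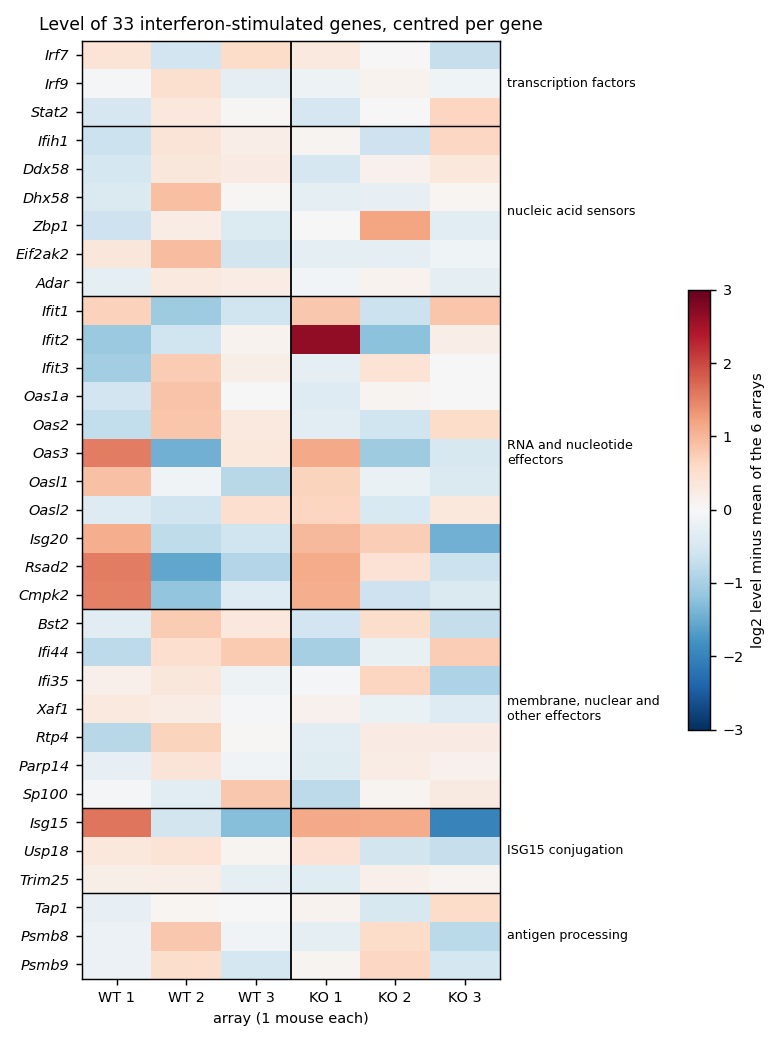
Log2 level of each measured member minus its mean over the 6 arrays, 1 column for each mouse (WT wild type, KO Bach2 knockout), with rows grouped by role. Isg15, Isg20, Rsad2 and Cmpk2 are high on WT 1 and KO 1, Ifit2 stands out on KO 1, and no block of rows separates the 3 knockout from the 3 wild-type columns.

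Isg15, Isg20 and Rsad2 were highest in the 3 mice in which the median of the erythroid markers was highest. That median over 9 markers, centred over the arrays, read 1.36, -1.41 and -1.04 in wild type and 1.30, 0.42 and -1.15 in knockout. All 9 of 9 were tested and well above background on every array, and their summed level relative to the array percentile ranged from 881 to 1735 in wild type and from 506 to 1553 in knockout. That sum did not follow the median, since its highest value was in wild-type replicate 3. Of the 9 markers 5 (Klf1, Alas2, Slc4a1 and Ermap among them) had these 3 mice on top and 4 (Hbb-bt, Hba-a1, Tfrc and Epor) did not. The globin genes Hbb-bt and Hba-a1 were highest in wild-type replicate 3. Klf1, the erythroid transcription factor, read 6.03, 1.75 and 2.12 in wild type and 5.74, 4.57 and 1.58 in knockout. Ube2l6, the enzyme that carries ISG15 to its targets and no member of the list, took the same course. It read 6.20, 3.21 and 4.35 in wild type and 6.14, 5.02 and 4.30 in knockout, and was singled out after its values were seen. In a separate list of other interferon-stimulated genes, 0 of 36 tested had these 3 mice on top. Of the members 3 of 33 (9.09%) had these 3 mice on top, against 12.1% of all entries, and in 6 (18.2%, against 15.2%) the same 3 were the lowest. Among the 5 tested interferon ligands, 4 (Ifna1, Ifna12, Ifna14 and Ifnl3) also had these 3 mice on top, and Ifng did not. Ifnl3 read 2.16, -0.25 and 0.04 in wild type and 1.71, 0.85 and -0.38 in knockout. Ifna12 and Ifna14 were not well above background on every array. The part of erythroid RNA, or of these ligands, in the readings of Isg15, Isg20, Rsad2 and Ube2l6 was not tested.

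**Figure D3:**
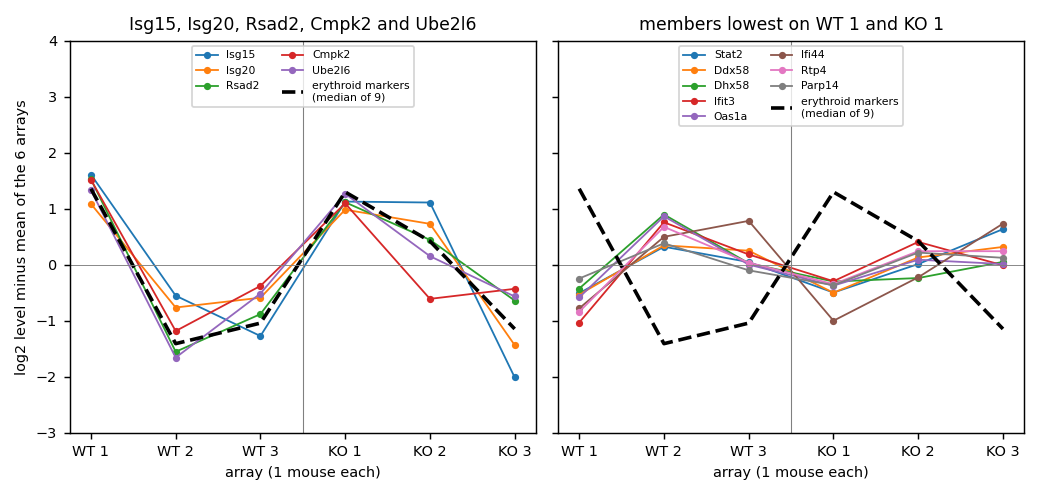
Log2 level minus the mean of the 6 arrays for Isg15, Isg20, Rsad2, Cmpk2 and Ube2l6 (left) and for the 8 members lowest on both WT 1 and KO 1 (right), beside the median of 9 erythroid markers (dashed black). Lines join the mice of 1 gene for reading only, since mice have no order. The left genes are highest on WT 1 or KO 1 and the right genes are lowest on those arrays.

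The other genes of the pathway were read from lists by role. Among 19 interferon ligands, 5 were tested and 1 had an unadjusted p under 0.05 by limma, higher in knockout (against 0.69% of all entries). That gene was Ifng, the interferon of T and NK cells, at 0.53, 0.74 and -0.83 in wild type and 1.31, 2.20 and 2.37 in knockout, 3.51-fold higher without overlap (difference 1.81 ± 0.57, limma adjusted p = 0.99997). On the higher side 1.14% of all entries had no overlap. Ifna1, the other ligand with the smallest p, differed by -0.37 ± 0.54. Among 10 receptors and kinases 9 were tested and 0 had an unadjusted p under 0.05 by limma, with Ifnar1 and Ifnar2, the type I receptor subunits, at -0.12 ± 0.45 and -0.26 ± 0.44. Ifngr1, a receptor subunit for interferon gamma, differed by -0.62 ± 0.53. Of 17 sensors, adaptors and factors listed around interferon induction 16 were tested. Of these 6 lay above 0, and 0 had an unadjusted p under 0.05 by limma. The smallest p values were those of the kinase Ikbke at 1.17 ± 0.68 and Irf3 at -0.35 ± 0.45. Ikbke was well above background on only 1 wild-type and 2 knockout arrays, which limits its value. Of 10 regulators that restrain the response or act on ISG15 9 were tested. Of these 1 had an unadjusted p under 0.05 by limma, lower in knockout, against 0.554% of all entries. It was Pias4, a SUMO ligase that inhibits STAT signalling, which read 0.84, 0.04 and 0.43 in wild type and -0.55, -1.16 and -0.56 in knockout. Its genotypes did not overlap (difference -1.19 ± 0.46, limma adjusted p = 0.99997), against 1.74% of all entries without overlap on the lower side. Socs1 differed by 0.75 ± 0.56.

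A further 47 interferon-stimulated genes outside the 35 were read in the same way. Of 36 tested, 19 lay above 0 and 17 below, 0 had an unadjusted p under 0.05 by limma, 0 had genotypes without overlap, and their median difference was 0.01. Ifi27l2a and Parp12, with the smallest p, differed by -0.70 ± 0.50 and 0.66 ± 0.51.

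Genes that respond mainly to interferon gamma had a median difference of 0.18 over 17 tested, against -0.04 for the 33 members and -0.11 for all entries. Gbp2, a guanylate-binding protein that attacks pathogen vacuoles, read 2.36, 3.04 and 3.06 in wild type and 3.42, 3.82 and 4.44 in knockout, 2.10-fold higher without overlap. Cxcl9, a chemokine that draws CXCR3-bearing lymphocytes, read 2.08, 3.77 and 2.79 in wild type and 3.61, 4.18 and 4.06 in knockout, with wild-type replicate 2 inside the knockout range. The differences were 1.07 ± 0.48 for Gbp2 and 1.07 ± 0.54 for Cxcl9, and 0 of the 17 genes had a limma adjusted p under 0.05 and 0 an unadjusted p under 0.05. Genotypes did not overlap, on the higher side, for 2 of the 17, Gbp2 among them, against 1.14% of all entries. Whether this list differed from the type I list was not tested. All 15 of 15 tested NK and cytotoxic markers lay above 0, with a summed level of 39.2 to 67.4 in wild type and 105 to 356 in knockout, and 15 of 16 tested T cell markers did, with 39.1 to 70.2 and 52.3 to 121. An unadjusted p under 0.05 by limma, higher in knockout, was found for 7 of the 15 and 3 of the 16, against 0.69% of all entries. No overlap on the higher side was found for 5 and 4, and 0 in either list had a limma adjusted p under 0.05. The part of NK and T cells in the readings of Ifng, Gbp2 and Cxcl9 was not tested.

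**Figure D4:**
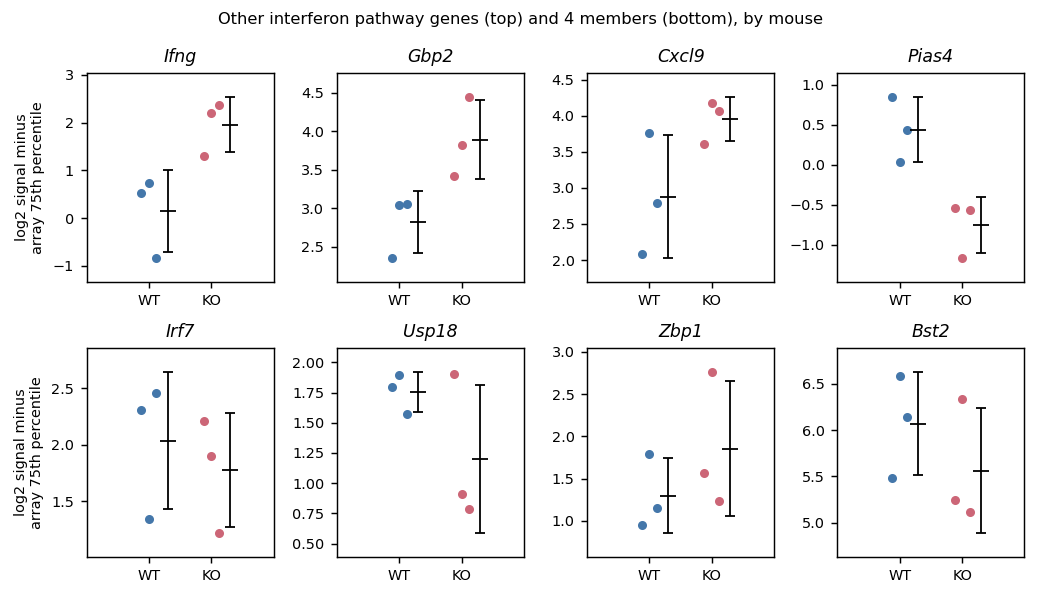
Log2 level relative to the array's 75th percentile in each mouse (points) with mean ± SD over 3 mice (black), for Ifng, Gbp2, Cxcl9 and Pias4 (top) and for the members Irf7, Usp18, Zbp1 and Bst2 (bottom); each panel has its own scale. Wild-type and knockout points are apart for Ifng, Gbp2 and Pias4, and overlap in the other 5 panels.

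Markers of plasmacytoid dendritic cells, which make much interferon alpha and hold Irf7 and Bst2 at a high level, were read because a splenic sort could hold them. Of 12 listed 10 were tested, and all 10 were well above background on all 6 arrays. Of the 10, 3 lay above 0 (against 39.3% of all entries) and 7 below, and the median difference was -0.19. Their summed level was 218 to 335 in wild type and 198 to 298 in knockout. Cox6a2 and Klk1 of this list had an unadjusted p under 0.05 by limma, against 0.554% of all entries on the lower side. They differed by -1.58 ± 0.51 and -1.50 ± 0.48 (limma adjusted p = 0.99997). No overlap on the lower side was found for 2 of the 10, against 1.74% of all entries. The part of these cells in the readings of Irf7 and Bst2 was not tested.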

How the data were processed

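Spot intensity values of 6 single-colour arrays were read by the authors with Agilent Feature Extraction, given as 9.1 in the submitters' processing notes but as 10.7.3.1 in the file headers. The deposited processed intensity had its background removed and a spatial trend taken out on each array, with no scaling across arrays. A table of log2 values that the authors deposited holds 279 probes, of which 0 belong to members, and gave no value here.

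Control spots and outlier spots (141 to 283 per array) were left out, spots of a probe were averaged on the log2 scale, and each array's 75th percentile over probes was subtracted. Probes were named by accession through a RefSeq table of GRCm38.p6 (26413 of 55681 probes). A probe entered the test if its spots were flagged well above background on 3 or more of 6 arrays, and the probe with the highest mean stood for a gene. The genotype difference was fitted in R 4.3.3 with limma 3.58.1 (lmFit, then eBayes), with Benjamini-Hochberg adjustment over all 18405 entries, and the fit was tested on simulated data. A gene's call needed an adjusted p under 0.05. Replicates are separate mice, numbered 1 to 3 in the order of the records. Promoter windows were taken as given, oriented along the gene in all 1629 overlapping pairs checked.

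The members and lists were chosen with earlier results of these data known. Values on every array were given for the member with the highest mean and the member with the smallest p in each role group, and for members singled out after their values were seen (Rsad2, Cmpk2, Ifit1, Ifit3, Oas1a and Psmb9). Of each pathway list the 2 genes with the smallest p were named, except 1 gene that is not reported here. Alternatives covered the scaling, the filter, the background correction, the probe, the array column, weights, an intensity trend and each mouse. The normexp alternative used median in place of mean spot signals, which the files do not hold, and it and the fit without the mice of array column 1 were added after the data were seen.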

Additional observations from a re-analysis of the deposited data

How the results depend on the processing

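In each of 17 alternatives 0 genes or transcripts and 0 members had a limma adjusted p under 0.05, and the smallest adjusted p of a member was 0.998. At an unadjusted p under 0.05 by limma, leaving out each mouse gave 0 to 1 members, namely Rsad2 without wild-type replicate 1 and Ifit2 without knockout replicate 2, and 0 otherwise. The median member minus the median of all entries was 0.07 and moved between -0.09 with no filter on dim probes, where 12 of 33 members lay above the median of all entries in place of 19, and 0.09 with probes well above background on all 6 arrays, where 29 members were tested. Without both mice of array column 1, where the median of the erythroid markers was highest, it was -0.01. Median scaling moved the median of all entries from -0.11 to 0.03 and changed the sign of 4 members, and no filter moved that median to 0.05 and changed the sign of 0. In all, 25 members changed sign in at least 1 alternative. Each of the 25 did so when mice were left out (12 without wild-type replicate 2), and 11 also did in alternatives that kept all 6 mice. The sign was kept by 8 members (Zbp1, Eif2ak2, Adar, Ifit1, Bst2, Xaf1, Usp18 and Psmb8) in every alternative run. No paired analysis was possible because the genotypes share only 1 animal tag, P6, whose meaning is not stated; with array column as a block 0 members had an unadjusted p under 0.05. Ifi44, Ifit2, Oas3 and Sp100 were not well above background on every array, which limits their values.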
